A study of Mus musculus with 15 samples.

Results

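Collagen chains and the enzymes that modify, trim and cross-link them were followed as a module of 36 genes, picked by gene symbol from the 47643 symbols of a transcript table of mouse muscle. The module holds 18 collagen chains and 18 processing genes: 9 for the hydroxylation of prolines and lysines, 2 chaperones, 3 for the removal of propeptides and 4 for cross-linking. Symbols found 35 of the members directly, and Leprel1 was found under its current symbol, P3h2. Levels are given as TPM, transcript abundances corrected for length and scaled to a fixed sum per library. A gene was kept where 3 or more of the 15 libraries held 1 TPM or more, which was so for all 36 members and for 11923 genes in all.

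The libraries came from the tibialis anterior, which lifts the foot, of female C57BL/6J mice with no engineered allele named in the labels. Per the series' design text, they were collected 49 days after a melanoma that causes cachexia, the wasting of muscle and fat, had been implanted or a mock injection had been given, and the mice received either the ACE inhibitor lisinopril or a mock treatment. The labels give an age of 7 weeks without saying at which point of the experiment. The 4 groups were control (no tumour, no drug, 4 libraries), lisinopril (no tumour, with the drug, 3 libraries), melanoma (tumour, no drug, 4 libraries) and melanoma plus lisinopril (tumour and drug, 4 libraries). Below, tumour-free stands for the first 2 groups (7 libraries) and tumour-bearing for the last 2 (8 libraries). The extraction protocol in the labels speaks instead of 3 weeks after an injection of LLC cells. This conflict was not resolved, and the groups follow the sample labels and the design text. Neither of these names a melanoma line, the site of the graft or the dose of the drug.

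Collagen chains are hydroxylated on prolines and lysines in the endoplasmic reticulum, wound around each other into a helix with the help of chaperones, secreted, trimmed at their ends and assembled outside the cell. Lysyl oxidases then oxidise lysines so that neighbouring molecules join by covalent cross-links, which stiffens the matrix. In skeletal muscle the fibril-forming collagens fill the sheaths around fibres and bundles and are made mostly by fibroblasts and fibro-adipogenic progenitors, while type IV collagen lines every fibre and capillary as part of the basement membrane, and type VI collagen lies between the basement membrane and the fibrils.

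The 7 muscle fibre markers summed to between 70234 and 143896 TPM in the 15 libraries. None of the 5 melanocyte markers passed the filter, Tyr was listed at 0 in every library, and their sum reached at most 0.39 TPM. Between 10530 and 12363 symbols reached 1 TPM per library, and transcripts of the mitochondrial genome took 28.5 to 52.8% of the TPM. Sequencing depth is unknown, because TPM are scaled to a fixed sum. In this whole muscle, fewer cells of a type and less RNA per cell cannot be told apart.

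Some libraries stood apart within the module. Control 1 was the highest library for 15 of the 18 collagen chains and for 10 of the 18 processing genes. Melanoma 2 was the lowest for 6 chains and melanoma plus lisinopril 4 for 5 chains. Summed over the 18 chains, control 1 held 1131 TPM, against 299 TPM in the lowest control, and melanoma plus lisinopril 4 held 126 TPM. The results on the chains are therefore also given without control 1. Control 2, highest for Col4a1 and Col4a2, held 23878 TPM of 4 red blood cell markers, against 159 to 4197 TPM in the other libraries.

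**Figure D1:**
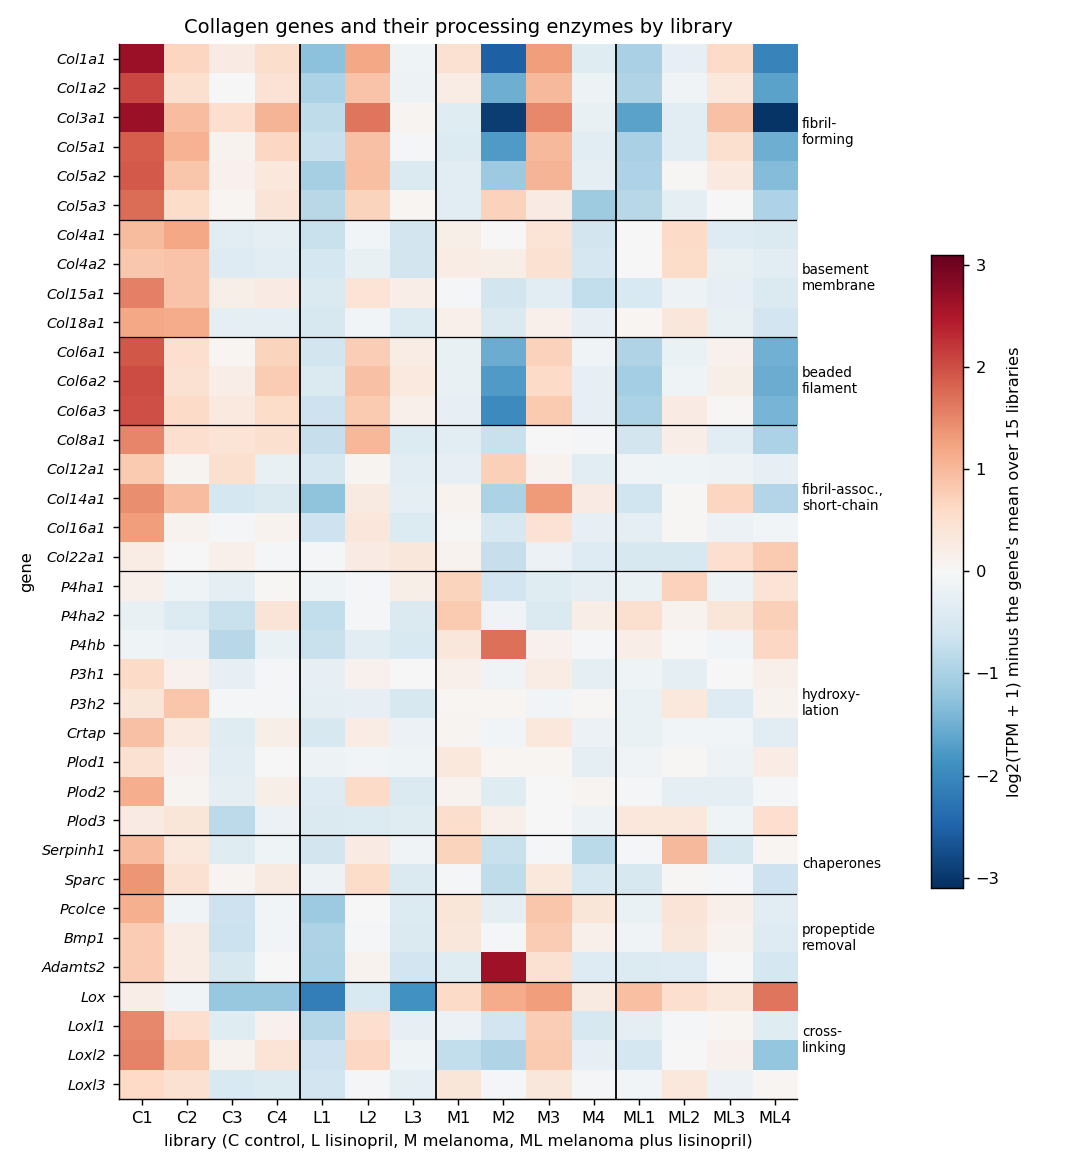
Each cell is log2(TPM + 1) of a gene in a library minus the mean of that gene over the 15 libraries (red above, blue below), with the 36 genes in rows by role and the libraries in columns by group. Control 1 is red in the chains, melanoma 2 and melanoma plus lisinopril 4 are blue in the beaded filament chains and, apart from Col5a3 in melanoma 2, in the fibril-forming ones, and the row of Lox lies above its mean in the 8 tumour-bearing libraries and in control 1 and below it in the other 6.

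The main comparison set tumour-bearing against tumour-free muscle, as the average of the effect without the drug and the effect with it. Of all 11923 genes, 18% passed the threshold (adjusted p below 0.05 in limma on log2(TPM + 1), Benjamini-Hochberg adjustment), 14.5% as higher and 3.45% as lower. Of the 36 members 3 passed it: Lox and P4hb were higher with a tumour and Col15a1 was lower. The members called higher were 5.56% and those called lower 2.78%. Rescaling by median ratios moved the median of all genes from 0.17 to 0.00 and the share of calls that were higher from 80.8% to 46.7%. Then 2 of the 36 members were higher and 4 lower, beside 1107 higher and 1261 lower of all 11923 genes.

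As a group the chains had lower estimates than the processing genes. The median log2 fold change was -0.67 over the 18 chains and 0.05 over the 18 processing genes, against 0.17 over all genes tested. 16 of the 18 chains had an estimate below 0, and all 18 lay below the median of all genes, but 17 of the 18 did not pass the test. Without control 1, when 17 chains passed the filter, the median of the chains was -0.48, and 15 of the 17 lay below the median of all genes, which was then 0.18. After median-ratio rescaling the medians were -0.84 for the chains, all 18 below 0, and -0.11 for the processing genes.

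**Figure D2:**
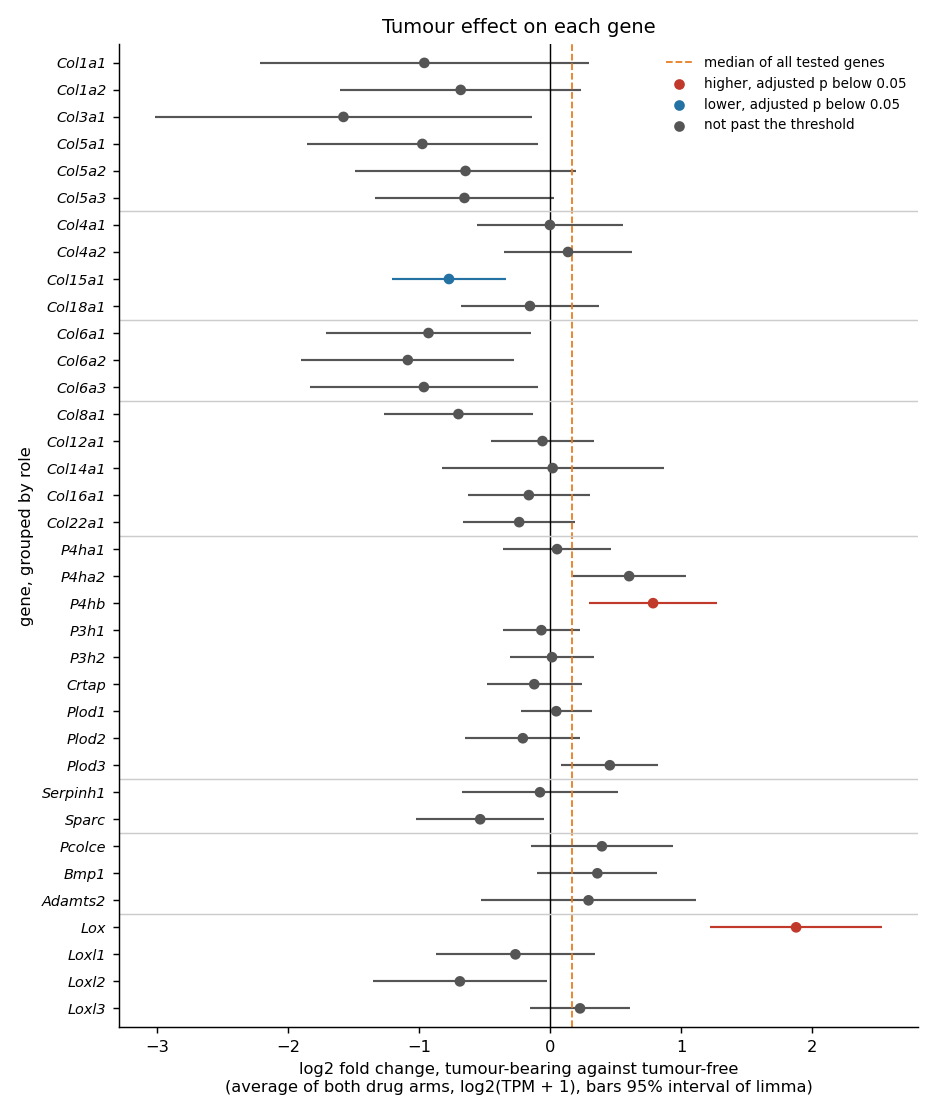
Log2 fold change of each of the 36 genes, tumour-bearing against tumour-free, averaged over both drug arms, with the 95% interval from limma as bars and the median of all tested genes as a dashed line. Lox at 1.88 lies apart from the other members, Col3a1 at -1.58 has the lowest estimate with a wide interval, and Lox, P4hb and Col15a1 are the members past the threshold.

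Among the fibril-forming chains, Col1a1 and Col1a2 encode the chains of type I collagen, the main protein of tendon and of the thick fibrils in muscle sheaths. Col1a1 stood at 194, 47.5, 35.5 and 43.7 TPM in control 1 to 4 and at 11.7, 69.4 and 26.9 TPM in the lisinopril libraries. It stood at 41.8, 4.37, 74.6 and 22.5 TPM in the melanoma libraries and at 14.4, 24.9, 45.1 and 6.29 TPM in those with melanoma plus lisinopril. The groups overlapped throughout, since melanoma 3 lay above 3 of the 4 controls and lisinopril 1 lay among the lowest libraries. The log2 fold change was -0.96 ± 0.59 (SE, limma adjusted p = 0.240). Col1a2 gave -0.68 ± 0.43 (limma adjusted p = 0.254). Without control 1 the estimates were -0.69 and -0.47, without melanoma 2 they were -0.59 and -0.45, and without lisinopril 2 that of Col1a2 was -0.44.

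Col3a1 encodes the chain of type III collagen, which makes thin, pliable fibrils. It stood at 328, 97.8, 72.6 and 104 TPM in the controls and at 28.5, 160 and 53.2 TPM with lisinopril. With melanoma it stood at 38.7, 5.60, 142 and 42.3 TPM, and with both at 15.3, 39.8, 95.3 and 5.26 TPM. 3 tumour-bearing libraries lay below every tumour-free one, and 7 of the 8 lay below the tumour-free median, but melanoma 3 was the third highest of all 15. The log2 fold change was -1.58 ± 0.67 and did not pass (limma adjusted p = 0.101), nor did the -1.35 found without control 1 (limma adjusted p = 0.173). Col3a1 had the widest range of the module, with the highest library 62.4 times the lowest.

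The chains of type V collagen, which sits inside type I fibrils and sets their width, had log2 fold changes of -0.98 ± 0.41 for Col5a1, -0.65 ± 0.39 for Col5a2 and -0.65 ± 0.32 for Col5a3, none past the threshold (limma adjusted p 0.0994, 0.238 and 0.148). Without control 1 they were -0.82, -0.46 and -0.48. Col5a2 was -0.37 without lisinopril 2, and Col5a1 passed the threshold without melanoma 3 (limma adjusted p = 0.0462). Col5a1 ranged from 1.87 TPM in melanoma 2 to 34.7 TPM in control 1. Col5a3 parted from the other fibril-forming chains in melanoma 2, where it stood at 13.5 TPM, above 6 of the 7 tumour-free libraries, while the other 5 chains lay there below every tumour-free library. Col3a1 and Col5a2 lie next to each other on chromosome 1 on opposite strands, 24614 bases apart.

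The make-up of the fibril-forming TPM varied too, and a share within a library does not depend on how the library was scaled. Col3a1 supplied 43.0 to 49.7% of the TPM of the 6 fibril-forming chains of tumour-free muscle, while their summed level ran from 64.1 to 721 TPM. In the tumour-bearing libraries its share ran from 15.5 to 47.4% (median 33.6%), with 15.5% in melanoma 2 and 19.5% in melanoma plus lisinopril 4, the lowest libraries for Col3a1 itself. The ranges overlapped. The ratio of Col3a1 to Col1a1 was 1.69 to 2.43 tumour-free and 0.836 to 2.11 tumour-bearing.

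Markers of the cells that make fibrils differed in direction. Of 8 markers of fibroblasts and fibro-adipogenic progenitors, all kept by the filter and none at 0 in any library, 3 rose: Dcn, the proteoglycan decorin (0.87 ± 0.18, limma adjusted p = 0.00870), Gsn, gelsolin (0.71), and Pdgfra, the growth factor receptor that marks these progenitors (0.67). The other 5 did not pass: Pi16 and Cd34 had estimates of 0.68 and 0.07, while Lum, Dpt and Clec3b had estimates below 0, of -0.61, -0.13 and -0.12. The summed level of all 8 was 326 to 961 TPM tumour-free (median 651) and 706 to 1226 TPM tumour-bearing (median 871). Of 6 tenocyte markers 5 were kept and 2 fell: Kera, the proteoglycan keratocan (by 1.24 ± 0.25, limma adjusted p = 0.00704), and Tnmd, tenomodulin (by 0.92 ± 0.25, limma adjusted p = 0.0254). Kera was at 0 in melanoma 2 and reached at most 0.947 TPM tumour-bearing, so it met the filter through tumour-free libraries alone. Tnmd reached 1 TPM tumour-bearing in melanoma plus lisinopril 3 alone (1.12 TPM), so it met the filter mainly through tumour-free libraries. Both falls are thus of genes kept by the side where they were higher. The other 3 kept markers did not pass. Of the 5 kept, 4 had an estimate below 0 and 1 above 0. Scx, also on this list, had a median of 4.96 TPM tumour-free and 7.74 TPM tumour-bearing. The summed tenocyte markers were 36 to 111 TPM tumour-free, highest in control 1. They were 16.1 to 67.0 TPM tumour-bearing, lowest in melanoma 2 and highest in melanoma 3, which were also low and high for the fibril-forming chains. Melanoma plus lisinopril 4 did not follow this. It was the lowest library for the summed fibril-forming chains (27.0 TPM), but lay within its group's tenocyte range of 25.3 to 46.0 TPM, at neither end. It also had the highest Scx (18.7 TPM). The part of these cells in the levels of the chains was not tested. Relative to each of the 8 fibroblast markers in the same library, the tumour-bearing median of Col3a1 was between 0.178 (over Pdgfra) and 0.436 (over Lum) of the tumour-free median, with overlapping ranges for all 8.

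The type IV collagen chains Col4a1 and Col4a2, which form the network of the basement membrane, had estimates near 0. Col4a1 stood at 107, 125, 42.3 and 43.6 TPM in the controls and 33.3, 51.1 and 36.1 TPM with lisinopril. It stood at 61.4, 53.7, 72.7 and 35.8 TPM with melanoma and 53.3, 81.6, 40.8 and 39.5 TPM with both. The tumour-bearing libraries lay inside the tumour-free range, whose upper end was set by control 1 and control 2. The log2 fold change was 0.00 ± 0.26 (0.24 with sample quality weights) with a 95% interval from -0.56 to 0.55 (limma adjusted p = 0.996), and that of Col4a2 was 0.14 ± 0.23 with an interval from -0.35 to 0.63 (-0.070 after median-ratio rescaling). Without control 1 they were 0.10 and 0.23. Melanoma 2 and melanoma plus lisinopril 4, low for the fibril-forming chains, held 53.7 and 39.5 TPM of Col4a1. The type IV chains made up 62.2 and 56.3% of the chain TPM in these 2 libraries, 22.1 to 51.6% in the other 6 tumour-bearing ones and 16.0 to 38.0% in the tumour-free ones, with 4 of the 8 tumour-bearing libraries inside the tumour-free range.

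The ratio of Col4a1 to Col4a2 lay between 1.16 and 1.65 in the 15 libraries, while the level of Col4a1 itself varied 3.77-fold. The genes lie head to head on chromosome 8, Col4a1 at chr8:11198423-11312826 on the minus strand and Col4a2 at chr8:11312805-11449287 on the plus strand (GENCODE, GRCm38), and their annotated bodies overlap by 22 bases. The library kit kept the strand, per the labels, but the sources used here do not say whether the counting used it. Because the start sites lie 20 bases apart, the promoter windows of the pair (RefSeq, GRCm38.p6, 250 bases before to 50 after the start) share 78 bases. They are shown because the pair held this narrow ratio, but a part of the shared stretch in it was not tested. Col6a1 and Col6a2, which lie 85161 bases apart, also kept a ratio within 1.78 to 2.79. The shared stretch stands in capitals and is read from opposite strands, Col4a1 from chr8:11312777-11313076 and Col4a2 from chr8:11312555-11312854, each 5′ to 3′ along its own gene.
Col4a1: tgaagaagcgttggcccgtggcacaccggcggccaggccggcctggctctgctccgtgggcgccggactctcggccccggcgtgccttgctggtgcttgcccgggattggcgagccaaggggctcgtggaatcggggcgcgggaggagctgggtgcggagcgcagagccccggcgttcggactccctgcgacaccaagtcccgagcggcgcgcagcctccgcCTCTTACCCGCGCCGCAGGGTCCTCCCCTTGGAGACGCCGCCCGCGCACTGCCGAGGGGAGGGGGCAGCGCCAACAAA
Col4a2: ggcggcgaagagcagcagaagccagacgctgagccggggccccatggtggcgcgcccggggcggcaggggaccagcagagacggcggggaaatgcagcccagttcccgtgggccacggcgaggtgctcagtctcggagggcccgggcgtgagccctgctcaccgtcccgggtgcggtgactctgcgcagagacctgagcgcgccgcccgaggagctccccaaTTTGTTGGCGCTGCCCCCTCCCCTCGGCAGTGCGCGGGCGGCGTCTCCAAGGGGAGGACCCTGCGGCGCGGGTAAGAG

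**Figure D3:**
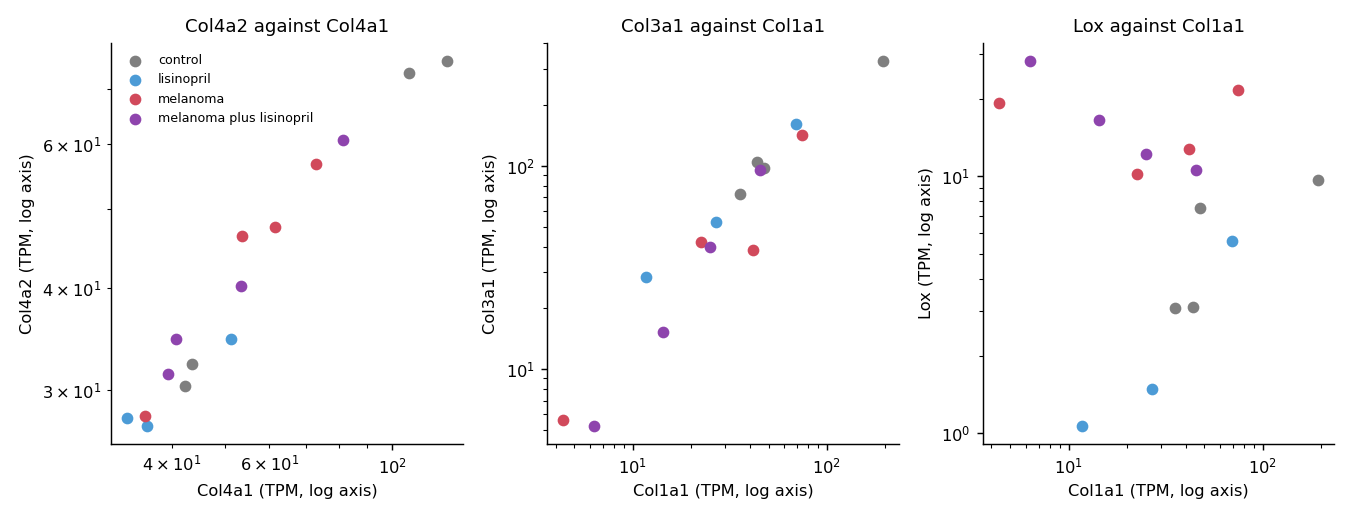
TPM of gene pairs in the 15 libraries on log axes, with 1 point a library coloured by group, for Col4a2 against Col4a1, Col3a1 against Col1a1, and Lox against Col1a1. The first pair falls on a narrow line (ratio 1.16 to 1.65), the second on a wider one (0.836 to 2.43), and in the third the ratio of Lox to Col1a1 is 0.235 to 4.47 in the tumour-bearing libraries against 0.050 to 0.158 in the others.

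Col15a1 and Col18a1 encode the multiplexins, collagens that tie basement membranes to the fibrils beside them. Col15a1 was the chain that fell. It stood at 34.7, 21.1, 12.6 and 13.4 TPM in the controls and 7.85, 15.2 and 12.9 TPM with lisinopril. It stood at 10.6, 7.09, 8.61 and 6.05 TPM with melanoma and 7.69, 9.78, 9.10 and 7.91 TPM with both. All 8 tumour-bearing libraries lay below the tumour-free median of 13.4 TPM, and lisinopril 1 was the tumour-free library that lay among them. Col15a1 fell by 0.77 ± 0.21 on the log2 scale (limma adjusted p = 0.0240), and by 0.63 without control 1 (limma adjusted p = 0.0334). The adjusted p was 0.0661 at most over the alternatives tried, and the call was lost without lisinopril 2 and without lisinopril 3. Col18a1 gave -0.15 ± 0.25 (limma adjusted p = 0.668), and -0.03 without control 1.

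Col15a1 lies at chr4:47208161-47313167 on the plus strand (GENCODE, GRCm38). Its RefSeq promoter window, chr4:47207762-47208061 on the plus strand of GRCm38.p6, is shown because it is the chain past the threshold, and it ends before the GENCODE start of the gene. Neither CCAAT, the TATA box letters TATAAA, nor ACGTG was found in it on either strand, so no base stands in capitals.
Col15a1: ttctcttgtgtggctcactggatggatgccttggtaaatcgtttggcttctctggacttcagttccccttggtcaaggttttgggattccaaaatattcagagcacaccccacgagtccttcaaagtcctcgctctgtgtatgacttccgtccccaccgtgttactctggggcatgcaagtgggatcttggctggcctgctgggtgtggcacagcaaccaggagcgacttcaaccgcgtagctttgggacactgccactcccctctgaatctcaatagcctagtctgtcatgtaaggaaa

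The chains of type VI collagen, which forms beaded filaments around muscle fibres, had estimates of -0.93 ± 0.37 for Col6a1, -1.09 ± 0.38 for Col6a2 and -0.96 ± 0.41 for Col6a3 (limma adjusted p 0.0804, 0.0580 and 0.0987). Without control 1 they were -0.74, -0.90 and -0.77. Col6a2 stood at 42.4, 13.9, 11.4 and 17.7 TPM in the controls and 6.89, 19.1 and 12.2 TPM with lisinopril. It stood at 8.25, 2.17, 15.2 and 7.96 TPM with melanoma and 4.15, 8.89, 11.2 and 2.70 TPM with both. 7 of the 8 tumour-bearing libraries lay below the tumour-free median for each of these chains, 3 of them below every tumour-free library, and melanoma 3 above the median. None passed the threshold, and Col6a2 passed it under 6 of 25 alternatives: sample quality weights, without control 2, melanoma 3 or melanoma plus lisinopril 3, and both rescalings of the libraries (-1.26, limma adjusted p = 0.0384 after median-ratio rescaling). Col6a1 and Col6a2 lie on the same strand of chromosome 10, 85161 bases apart, and their ratio ran from 1.78 to 2.79 over the 15 libraries.

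The remaining chains included the fibril-associated collagens Col12a1, Col14a1, Col16a1 and Col22a1, which sit on the surface of fibrils, and Col8a1, a short-chain collagen of vessel walls. Col8a1 stood at 9.89, 4.52, 4.12 and 4.36 TPM in the controls and 1.31, 6.75 and 1.83 TPM with lisinopril. It stood at 2.00, 1.36, 2.78 and 2.63 TPM with melanoma and 1.56, 3.37, 2.01 and 0.948 TPM with both. Its estimate was -0.70 ± 0.27 (limma adjusted p = 0.0725), -0.57 without control 1 and -0.43 without lisinopril 2, so the difference did not pass although all 8 tumour-bearing libraries lay below the tumour-free median. Col12a1, Col14a1 and Col16a1 had estimates of -0.06, 0.02 and -0.16. Without control 1 Col14a1 was at 0.20 and Col16a1 at -0.01, and Col12a1 no longer passed the filter. Col22a1, found at the junction of muscle and tendon, behaved unlike the other chains: it lay between 0.741 and 1.33 TPM in the 7 tumour-free libraries, but between 0.124 TPM (melanoma 2) and 2.19 TPM (melanoma plus lisinopril 4) in the tumour-bearing ones. 5 of these lay below every tumour-free library and 2 above every one, which left an estimate of -0.24 ± 0.20 (limma adjusted p = 0.397), and of -0.21 without control 1.

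**Figure D4:**
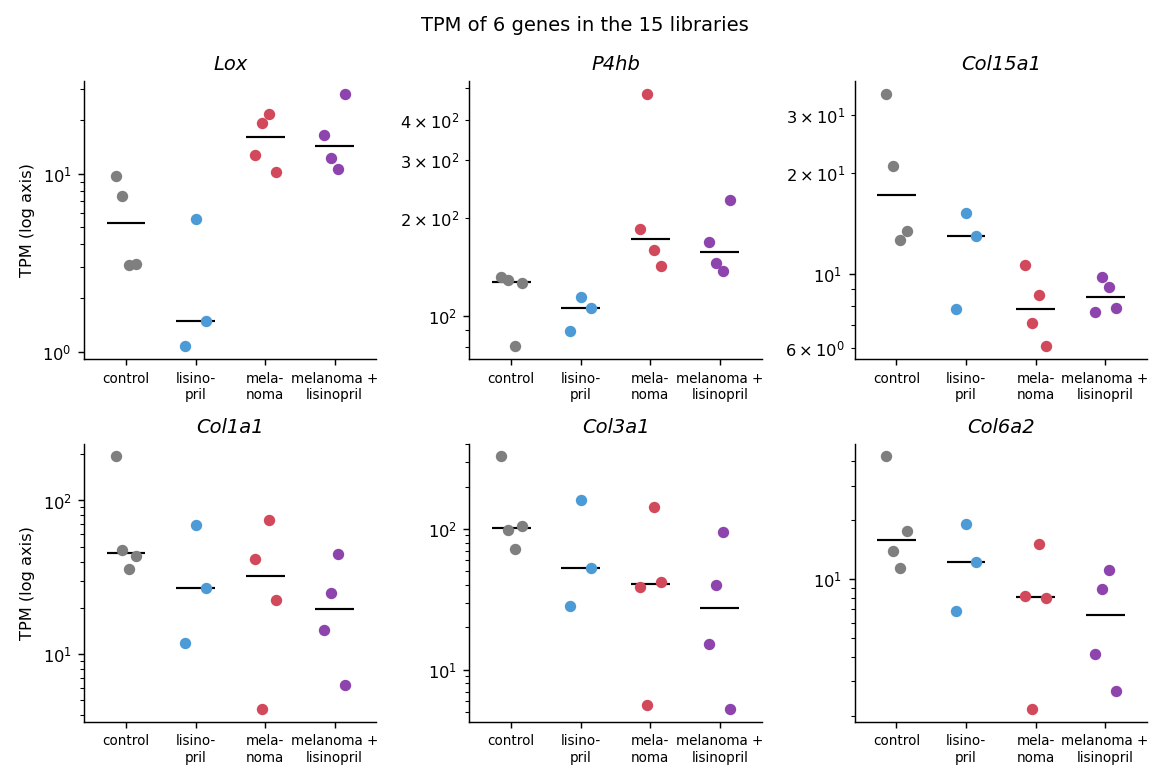
TPM of Lox, P4hb, Col15a1, Col1a1, Col3a1 and Col6a2 on a log axis, with 1 point a library and a line at the median of each of the 4 groups. For Lox and P4hb all 8 tumour-bearing libraries lie above the 7 tumour-free ones, whereas for the 4 collagen chains the groups overlap.

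Of the 9 genes of proline and lysine hydroxylation, 1 passed the test. P4hb, protein disulfide isomerase, serves as the common partner subunit of the prolyl 4-hydroxylases and also folds many other secreted proteins. It stood at 132, 128, 80.4 and 126 TPM in the controls and 89.4, 114 and 106 TPM with lisinopril. It stood at 185, 481, 159 and 142 TPM with melanoma and 168, 145, 137 and 227 TPM with both. Every tumour-bearing library lay above every tumour-free one, which held for 1.49% of all genes in this direction and for 2 members, while none was separated as lower (0.839% of all genes). P4hb rose by 0.79 ± 0.23 on the log2 scale, or 1.72-fold (limma adjusted p = 0.0335). Without melanoma 2, the highest library, it rose by 0.59 (limma adjusted p = 0.0190). The call was lost under 8 of 25 alternatives, without the filter and without control 3, control 4, any of the lisinopril libraries, or melanoma plus lisinopril 1 or 4. The adjusted p was then at most 0.0855, and estimates over the alternatives ran from 0.52 to 0.88.

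The catalytic partners of P4hb did not pass. P4ha1 gave 0.05 ± 0.19 (limma adjusted p = 0.858). P4ha2 stood at 6.29 to 15.3 TPM tumour-free and 8.10 to 20.6 TPM tumour-bearing, overlapping ranges with an estimate of 0.60 ± 0.20 that did not pass (limma adjusted p = 0.0509), though it did without control 4, melanoma 3 or melanoma plus lisinopril 2 (limma adjusted p 0.0356, 0.0339 and 0.0498). The ratio of P4hb to P4ha1 was 7.21 to 11.04 tumour-free and 6.74 to 59.0 tumour-bearing, with 59.0 in melanoma 2.

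P4hb lies at chr11:120560298-120573253 on the minus strand (GENCODE, GRCm38). Its RefSeq promoter window, chr11:120573204-120573503 on the minus strand of GRCm38.p6, is shown because P4hb is the hydroxylation gene past the threshold. The capitals mark a CCAAT, the box bound by the factor NF-Y, and ACGTG, the core letters of several stress response elements, once on the strand shown and once, as CACGT, on the opposite strand.
P4hb: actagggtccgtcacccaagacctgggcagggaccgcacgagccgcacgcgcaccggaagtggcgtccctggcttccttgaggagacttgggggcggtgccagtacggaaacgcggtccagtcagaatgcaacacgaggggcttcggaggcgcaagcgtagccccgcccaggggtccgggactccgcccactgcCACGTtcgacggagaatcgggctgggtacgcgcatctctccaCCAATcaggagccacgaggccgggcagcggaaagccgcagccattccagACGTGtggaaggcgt

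Both strands of the windows were searched for these letters. RefSeq windows were at hand for 24 of the 36 members, 27 windows in all. CCAAT was found in 10 of the 27 (37.0%) and in 37.4% of the 32851 windows of all genes, and TATAAA in 4 (14.8%) against 13.6%. ACGTG was found in 8 of the 27 (29.6%) against 19.6% of all windows, in 2 of 15 windows of chains and 6 of 12 windows of processing genes, among them those of P4ha1, P4ha2, P4hb and Plod3. These are matches of letters in small numbers of windows and were not tested.

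The lysyl hydroxylases prepare lysines for cross-linking and for the attachment of sugars. Plod3, which also attaches the sugar, stood at 9.89, 10.9, 4.26 and 7.12 TPM in the controls and 5.68, 5.82 and 6.10 TPM with lisinopril. It stood at 12.4, 9.18, 8.27 and 7.23 TPM with melanoma and 10.5, 10.5, 7.42 and 12.2 TPM with both. All 8 tumour-bearing libraries lay above the tumour-free median but control 1 and control 2 lay among them, and the estimate of 0.46 ± 0.17 did not pass (limma adjusted p = 0.0724) except without control 2 (limma adjusted p = 0.0271). Plod1 gave 0.05 ± 0.13 and Plod2, the enzyme for the ends of fibril-forming chains, -0.21 ± 0.21. The prolyl 3-hydroxylase P3h1 and its partner Crtap gave -0.07 ± 0.14 and -0.12 ± 0.17, and P3h2 0.01 ± 0.15. These 5 intervals all lay within -0.65 and 0.34 on the log2 scale.

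Serpinh1, the collagen-specific chaperone of the endoplasmic reticulum (HSP47), stood between 23.9 and 71.0 TPM tumour-free and between 19.7 and 72.4 TPM tumour-bearing. The ranges overlapped almost fully, with an estimate of -0.08 ± 0.28 (limma adjusted p = 0.858). Sparc, an extracellular glycoprotein that binds collagen, stood at 290, 155, 118 and 134 TPM in the controls and 98.9, 165 and 80.7 TPM with lisinopril. It stood at 108, 63.8, 140 and 78.3 TPM with melanoma and 78.8, 115, 107 and 71.2 TPM with both. 7 of the 8 tumour-bearing libraries lay below the tumour-free median of 134 TPM and 4 below every tumour-free library, yet the estimate of -0.53 ± 0.23 did not pass (limma adjusted p = 0.102).

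The genes of propeptide removal had estimates above 0, and none passed: 0.36 ± 0.21 for Bmp1, the protease that trims the carboxyl ends, 0.40 ± 0.25 for Pcolce, which enhances it, and 0.29 ± 0.38 for Adamts2, the protease for the amino ends (limma adjusted p 0.227, 0.264 and 0.594). Bmp1 was 0.24 without control 3 and Pcolce 0.25 without lisinopril 1. Adamts2 rested on 1 library, standing at 28.8 TPM in melanoma 2 and between 1.47 and 7.35 TPM in the other 14. Without melanoma 2 its estimate was -0.05.

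Lox, lysyl oxidase, the founding enzyme of the cross-linking family, had the largest estimate of the module. It stood at 9.69, 7.51, 3.07 and 3.09 TPM in the controls and 1.07, 5.58 and 1.49 TPM with lisinopril. It stood at 12.8, 19.2, 21.7 and 10.2 TPM with melanoma and 16.5, 12.2, 10.6 and 28.1 TPM with both. All 8 tumour-bearing libraries lay above all 7 tumour-free ones, though the lowest of the former, 10.2 TPM, was close to control 1 at 9.69 TPM. Lox rose by 1.88 ± 0.31 on the log2 scale, 3.68-fold with a 95% interval on the log2 scale from 1.22 to 2.53 (limma adjusted p = 0.00263). It passed the threshold under all 25 alternatives tried, with estimates from 1.69 to 2.20 and an adjusted p of at most 0.0111.

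None of the other lysyl oxidases passed the test. Loxl1, which acts on elastin, gave -0.27 ± 0.28, Loxl2, which acts on type IV collagen, -0.69 ± 0.31, and Loxl3 0.23 ± 0.18 (limma adjusted p 0.510, 0.118 and 0.362). Loxl2 passed without melanoma 3 (limma adjusted p = 0.0491). Loxl2 ranged from 2.81 to 16.4 TPM tumour-free and from 1.60 to 9.42 TPM tumour-bearing, overlapping with 7 of the 8 tumour-bearing libraries below the tumour-free median. Since the whole family was measured in the same libraries, the share of Lox in its summed TPM was free of the scaling. That share was 18.5, 24.3, 20.4 and 15.8% in the controls and 13.0, 20.7 and 11.2% with lisinopril. It was 53.1, 70.3, 46.0 and 49.3% with melanoma and 61.4, 45.8, 41.6 and 76.3% with both. The ranges did not overlap, 11.2 to 24.3% against 41.6 to 76.3%, so that Loxl1 and Loxl2 supplied most of the family transcripts in tumour-free muscle and Lox a median of 51.2% of them in tumour-bearing muscle.

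**Figure D5:**
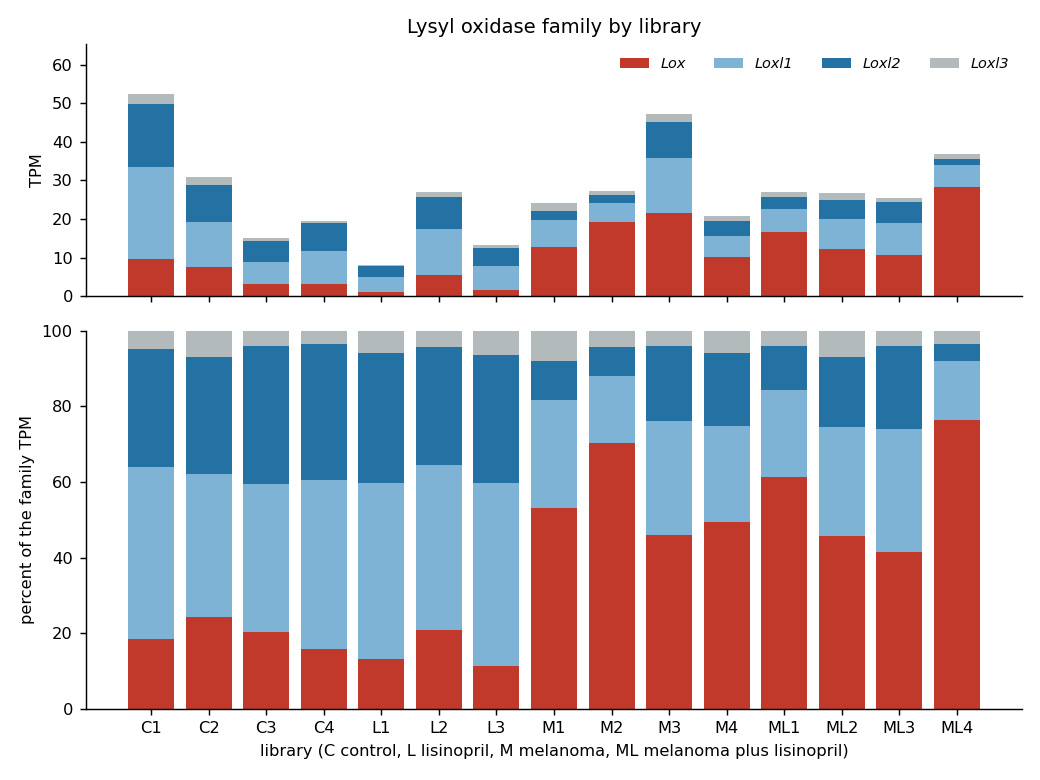
Stacked bars of Lox, Loxl1, Loxl2 and Loxl3 in the 15 libraries, as TPM above and as percent of the summed family TPM below. The part of Lox is 11.2 to 24.3% without a tumour (7 libraries) and 41.6 to 76.3% with one (8 libraries).

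The ratio of Lox to its substrates was set apart too. Lox over Col1a1 was 0.050 to 0.158 tumour-free (median 0.0804) and 0.235 to 4.47 tumour-bearing (median 0.472), and Lox over Col3a1 0.0280 to 0.0768 and 0.111 to 5.35, neither with overlap. These ratios combine a gene that rose with genes whose estimates were below 0. Set against the 8 fibroblast markers, the tumour-bearing median of Lox was between 1.95 (over Dcn) and 4.77 (over Lum) times the tumour-free median. The ranges were apart for 4 markers, Lum, Dpt, Cd34 and Clec3b, and overlapped for the other 4, Pdgfra, Dcn, Pi16 and Gsn. The part of the fibroblast markers in the level of Lox was not tested.

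Taken by drug arm, the tumour comparison rested on fewer libraries. In melanoma against control, limma called none of the 36 members and 0.646% of all genes, while 10 members and 18.5% of all genes had an unadjusted p below 0.05. All 18 chains had an estimate below 0 (median -0.92, and -0.61 over 17 chains without control 1). The groups did not overlap for 4 members, Lox and P4hb as higher (5.33% of all genes were separated in that direction) and Col15a1 and Col8a1 as lower (2.89%). The estimates were 1.39 ± 0.42 for Lox, 0.88 ± 0.31 for P4hb, -1.15 ± 0.28 for Col15a1 and -1.02 ± 0.36 for Col8a1, and none passed (limma adjusted p 0.123, 0.172, 0.0705 and 0.172).

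In melanoma plus lisinopril against lisinopril, limma called 1 of the 36 members and 1.48% of all genes, 1.34% as higher. Lox rose by 2.37 ± 0.45 (limma adjusted p = 0.0254), and lost the call without lisinopril 1, lisinopril 3, or melanoma plus lisinopril 1, 2 or 4, with an adjusted p of up to 0.151. The groups did not overlap for Lox, P4ha2, P4hb and Plod3, all higher, or 11.1% of the members against 29% of all genes, and for no member as lower (4.41%). P4ha2 gave 0.85 ± 0.30, P4hb 0.69 ± 0.34 and Plod3 0.68 ± 0.25 without passing (limma adjusted p 0.134, 0.230 and 0.149). With the replicate number as a block over all 4 groups, 2.99% of all genes were called (356 against 177). Lox was the 1 member called at 2.41 ± 0.47 (limma adjusted p = 0.0222), and the other 3 did not pass. The median of all genes was itself shifted to 0.23 in this arm. Here 12 of the 18 chains had an estimate below 0, and the median of the chains was -0.39.

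Whether the tumour effect differed between the arms was tested as an interaction, and limma called 0 of the 36 members and 0% of all genes. At an unadjusted p below 0.05 there were 0 members and 151 genes. For Lox the effect with the drug minus that without it was 0.98 ± 0.62, with a 95% interval from -0.33 to 2.30, for P4hb -0.19 with an interval from -1.18 to 0.79, and for Col15a1 0.76 with an interval from -0.12 to 1.63. The intervals are wide enough to hold differences as large as the effects themselves.

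The drug was compared in tumour-free muscle, in tumour-bearing muscle and as the average over both, and limma called 0 of the 36 members and 0% of all genes in each. Lisinopril inhibits the enzyme that makes angiotensin II, a peptide known to stimulate collagen synthesis by fibroblasts. In lisinopril against control, 34 of the 36 members had an estimate below 0 and 30 lay below the median of all genes, which was -0.18. Estimates below 0 were not particular to the module. All 18 kept genes of the TGF-beta pathway, all 14 of other collagen processing and all 13 of collagen breakdown had them. So did all 8 fibroblast markers, but only 2 of 5 kept tenocyte markers and 1 of 7 muscle fibre markers. A part of the drug's target in these estimates was not tested. The median of the chains was -0.77, and -0.41 without control 1. Unadjusted p-values below 0.05 were found for 4 members, Col4a1, Col15a1, Col18a1 and P3h2, named here after their values were seen, and for 461 of all genes. P3h2, a prolyl 3-hydroxylase of basement membrane collagens, stood at 1.76, 2.92, 1.08 and 1.09 TPM in the controls and at 0.751, 0.808 and 0.507 TPM with lisinopril. It was the 1 member whose groups did not overlap, as was the case for 4.13% of all genes in this direction, with an estimate of -0.64 ± 0.22 (limma adjusted p = 0.714).

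In tumour-bearing muscle the estimates of the drug were smaller. The median of the chains was -0.22 against -0.06 for all genes, and no member had an unadjusted p below 0.05, against 189 of all genes. No member was separated between the groups, beside 0.193% of all genes as higher and 0.688% as lower. Lox stood at 10.2 to 21.7 TPM with melanoma and 10.6 to 28.1 TPM with melanoma plus lisinopril, with a log2 fold change of 0.04 ± 0.42 and a 95% interval from -0.86 to 0.93. Col1a1 gave -0.40 with an interval from -2.11 to 1.30, which leaves room for large changes in either direction. Averaged over tumour status, 1 member, P3h2, and 631 of all genes had an unadjusted p below 0.05, and no member was separated as lower (0.00839% of all genes).

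Genes of the same pathways outside the module were counted from lists of known members, again for the average tumour effect. Of 26 other collagen chains 6 passed the filter, of which Col23a1, a membrane-bound collagen, rose (0.58) and Col24a1, a minor fibril-forming chain, fell (by 0.92 ± 0.16, limma adjusted p = 0.00363). Col24a1 ran from 1.05 to 3.12 TPM tumour-free and from 0.112 to 1.15 TPM tumour-bearing, overlapping at the edge. Only melanoma 4 and melanoma plus lisinopril 3 reached 1 TPM among the tumour-bearing libraries, so it met the filter mainly through tumour-free ones. Of 19 other processing genes 14 passed the filter and 4 rose: Tgm2, the transglutaminase that joins glutamines and lysines of matrix proteins (1.53 ± 0.28), Tmem38b, an ion channel of the endoplasmic reticulum whose loss causes a brittle bone disease (1.09 ± 0.18), Tll1, a relative of Bmp1 (0.40), and Colgalt1, which attaches galactose to collagen (0.40). Tgm2 ran from 16.6 to 50.9 TPM tumour-free and from 43.3 to 144 TPM tumour-bearing. Tll1 lay near the filter, with a median of 0.280 TPM tumour-free and 0.900 TPM tumour-bearing, both below 1 TPM. It may thus have been kept by the side where it was higher, which limits what its rise shows.

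Of 14 genes of collagen breakdown and its inhibition 13 passed the filter and 4 rose: the stromelysin Mmp3 (1.77 ± 0.29), the neutrophil collagenase Mmp8 (1.16 ± 0.30), the gelatinase Mmp9 (0.70 ± 0.16) and Timp4, a metalloproteinase inhibitor (1.49 ± 0.23), with limma adjusted p of 0.00265, 0.0203, 0.0147 and 0.00167. Mmp3 ran from 0.311 to 3.19 TPM tumour-free and from 1.61 to 10.6 TPM tumour-bearing, low levels beside the collagens. Mmp9 ran from 0.168 to 0.594 TPM tumour-free and from 0.271 to 2.43 TPM tumour-bearing. It therefore met the filter only through tumour-bearing libraries. Of 9 collagen receptors 5 passed the filter and none passed the test. Of 20 genes of the TGF-beta pathway, a main inducer of collagen genes, 18 passed the filter and 4 rose: the receptors Tgfbr2 (1.04 ± 0.20), Tgfbr3 (0.94 ± 0.20) and Tgfbr1 (0.75 ± 0.19) and the shared signal carrier Smad4 (0.74 ± 0.16). Of these 18 genes, 12 had an estimate above 0 and 6 below, and 9 lay below the median of all genes. None of the breakdown, receptor and TGF-beta lists had a member that fell past the threshold. The median changes of the other chains, processing, breakdown, receptor and TGF-beta lists were 0.04, 0.14, 0.18, 0.44 and 0.20, beside 0.17 for all genes.

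Other cell types of the muscle make collagen as well. Of 6 markers of the endothelium, which makes type IV collagen, Tek rose (0.62) and Kdr fell (by 0.85), and their summed level was 79.8 to 175 TPM tumour-free and 96.7 to 162 TPM tumour-bearing. None of 6 markers of pericytes and smooth muscle passed, with sums of 142 to 270 TPM and 139 to 249 TPM. Of 5 macrophage markers Cd163 (1.92) and Mrc1 (1.02) rose, 3 did not pass, and 1 of the 5 had an estimate below 0. The sum of the 5 reached 99.9 TPM in melanoma 2, the library with the highest P4hb and Adamts2, but 75.9 TPM of it came from Cd68. The other markers were highest elsewhere: Csf1r and Mrc1 in melanoma 3, Cd163 in melanoma plus lisinopril 2 and Adgre1 in control 2. Adgre1 stood at 1.13 TPM in melanoma 2 and 5.95 TPM in control 2. The part of these cells in the levels of the members was not tested.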

How the data were processed

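RNA of the tibialis anterior was sequenced from stranded mRNA libraries (TruSeq kit, NovaSeq instrument, per the labels' protocols). The authors deposited TPM per gene symbol. The genome build was mm10, per the submitters' processing notes, while the sources used here name no aligner, counting program, annotation or filter. The labels call the libraries biological replicates, and p-values measure the spread between these libraries.

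Members, lists and tests were chosen with earlier results of these data known. The 11923 kept genes were fitted as log2(TPM + 1) in limma 3.58.1 (R 4.3.3) with 4 group means, eBayes with trend, 11 residual and 3.80 prior degrees of freedom. Tests were two-sided, with Benjamini-Hochberg adjustment over all kept genes within each of 7 contrasts. Errors are standard errors from limma. Fold changes on this scale understate those of genes near 1 TPM. The fit was tested on simulated data. Same-numbered libraries of lisinopril and melanoma plus lisinopril deviated together weakly (3 of 3 correlations of deviations above 0.1, from 0.129 to 0.196). Differently numbered libraries of other pairs of groups reached 0.363 (control 1 with lisinopril 2). The labels do not say what a number marks, so a pairing is not established. The main fit has no pairing, and the replicate number as a block is an alternative.

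By rule, every member was named in the average tumour effect, and elsewhere those past the threshold or with groups that did not overlap. Members called for the tumour effect, Col1a1, and members with a low unadjusted p in a drug comparison were named beyond this rule, after their values were seen. From other lists, up to 4 genes per direction past the threshold and defining markers were named. Positions came from GENCODE (GRCm38, the assembly of mm10) and promoters from RefSeq (GRCm38.p6). Python 3.11.15 with pandas 2.3.3 was used for tables and matplotlib 3.10.9 for figures.

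Alternatives changed the pseudocount (0.1), the filter (none, or a mean TPM of 5 or more), the scaling (median ratios, quantiles, TPM without the mitochondrial genome), the variance model (eBayes with no trend, sample weights for quality, a block for the replicate number) and the libraries (the compared groups alone, each library left out, control 2 and melanoma 2 left out together).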

Additional observations from a re-analysis of the deposited data

Results flagged for a closer look

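Of 108 sets of 4 libraries, 1 for each member in each group of 4, 10 held a library far from the other 3, its gap to the nearest of them being too large a part of the range of the set by Dixon's criterion. About 5% of sets would pass by chance if the sets were independent and their values normal. These sets share libraries, so the 10 were not tested against chance. 6 of the 10 were control 1, all of them collagen chains: Col1a1 at 194 TPM (other controls 35.5 to 47.5), Col1a2 at 103 TPM (24.1 to 34.6), Col3a1 at 328 TPM (72.6 to 104), Col6a3 at 33.9 TPM (9.69 to 12.1), Col8a1 at 9.89 TPM (4.12 to 4.52) and Col16a1 at 6.11 TPM (1.81 to 2.13). Melanoma 2 stood apart for P4hb at 481 TPM (other melanoma libraries 142 to 185) and for Adamts2 at 28.8 TPM (2.64 to 5.71). Melanoma 1 stood apart for P4ha1 at 21.1 TPM (8.16 to 10.3), and control 3 for P4hb at 80.4 TPM, below the other controls (126 to 132). No member passed the test of a difference between the drug arms.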

How the results depend on the processing

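Of 1120 values of single genes under alternatives, 1021 kept their direction and their side of the threshold, 29 gained a call, 16 lost one and 54 changed sign. No member was called in any drug contrast or in the interaction under any alternative tried. In melanoma against control (0 members called) Col15a1 alone passed after median-ratio rescaling, quantile normalization and without the mitochondrial genome (1 each), and Col15a1 and Lox passed with sample quality weights (2). Leaving out single libraries gave 0 throughout. Over all genes, 55 were called higher and 22 lower in the main fit of this comparison, and 1173 and 537 with sample quality weights. They were 99 and 64 after median-ratio rescaling, 230 and 129 after quantile normalization, and 72 and 65 without the mitochondrial genome. In melanoma plus lisinopril against lisinopril (1 member) the count was 0 without the filter, 2 without control 2 and melanoma 2 together, and 3 with sample quality weights or only the groups compared, and leaving out single libraries gave 0 to 1. Over all genes, 160 were called higher and 17 lower in the main fit of this arm, and 13 and 1 without the filter. The counts were 1689 and 229 without control 2 and melanoma 2 together. They were 1976 and 327 with sample quality weights and 764 and 112 with only the groups compared. For the average tumour effect (3 members) it was 6 after median-ratio rescaling, 5 after quantile normalization and 5 with sample quality weights. Leaving out single libraries gave 1 (without lisinopril 2 or lisinopril 3, Lox remaining) to 7 (without melanoma 3), and 5 without control 2. Over all genes, 1730 were called higher and 411 lower in the main fit of this comparison. They were 1107 and 1261 after median-ratio rescaling, 1176 and 1174 after quantile normalization, and 3632 and 1028 with sample quality weights. Without melanoma 3 they were 1428 and 410, and without control 2 they were 3329 and 624. The cause of these moves was not tested.

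Signs changed for 11 members near 0 in the average tumour effect. With the replicate number as a block Col4a1 was 0.090, and the block left the counts at 0, 1 and 3 in the tumour contrasts and 0 elsewhere. Outside lisinopril and melanoma plus lisinopril, no pair of groups had all its same-numbered libraries correlated above 0.1 (9 of 21 correlations of deviations were, over all pairs of groups, from -0.15 to 0.36). Whether a number marks a pair is not known for any of the groups. The block moved the calls over all genes from 77 to 120 in melanoma against control and changed no call of a member. With sample quality weights Col4a1 was 0.24, Col18a1 0.13, Col12a1 0.0030 and P4ha1 -0.064. After median-ratio rescaling and quantile normalization Col4a2 was -0.070 and -0.064, Col14a1 -0.12 and -0.11, P4ha1 -0.14 and -0.13, P3h2 -0.082 and -0.070, and Plod1 -0.15 and -0.15. Without the mitochondrial genome Col14a1, P4ha1, P3h2 and Plod1 were -0.078, -0.075, -0.055 and -0.077. Without control 2 and melanoma 2 together Col4a1 was 0.14, Col18a1 0.023, Serpinh1 0.023 and Adamts2 -0.030. Leaving out single libraries, estimates ran from -0.12 to 0.13 for Col4a1, -0.14 to 0.028 for Col12a1, -0.19 to 0.21 for Col14a1, -0.084 to 0.13 for P4ha1, -0.13 to 0.014 for P3h1, -0.047 to 0.11 for P3h2, -0.020 to 0.11 for Plod1, -0.23 to 0.050 for Serpinh1 and -0.048 to 0.46 for Adamts2. Since TPM keep no depth, counting error could not be separated from the spread between libraries.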
